A study of Mus musculus with 14 samples.

Results

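Chemokines are small secreted proteins that guide leukocytes along concentration gradients through G protein-coupled receptors. In the mouse, most inflammatory CXC ligands lie side by side on chromosome 5 and most inflammatory CC ligands on chromosome 11, and fibroblasts are a known source of several of them after exposure to inflammatory signals. Acetylation of lysine 27 of histone H3 (H3K27ac) is a mark of active promoters and enhancers, so a map of H3K27ac sites shows which of these neighbouring genes have marked chromatin at or near their start.

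The genes described here were the 10 chemokine genes Cxcl1, Cxcl2, Cxcl3, Cxcl5, Pf4 and Cxcl10 of chromosome 5, Cxcl12 of chromosome 6, and Ccl2, Ccl5 and Ccl7 of chromosome 11. A listed H3K27ac site was assigned to a gene where it overlapped the annotated gene body or the 10 kb on either side of it (the window of the gene). Of the 122228 sites listed, 122171 lay on chromosomes 1 to 19 and X, and 63 of these lay in the window of at least 1 of the 10 genes. A total of 26 of the 63 were in the windows of 2 genes, because neighbouring genes stand close together: Ccl2 and Ccl7 shared 10 sites, Cxcl5 and Pf4 shared 7, Pf4 and Cxcl3 shared 5, and Cxcl1 and Cxcl2 shared 4.

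The cells were NG3, 1 clone of immortalised mouse embryo fibroblasts (iMEF) in which exon 4 of both floxed Ash2l alleles had been deleted by an inducible Cre-ER and which lived on a lentiviral fusion of FKBP12F36V with HA-tagged human ASH2L. ASH2L is a core component of the KMT2 histone methyltransferases, whose target is lysine 4 of histone H3, and dTAG is a compound that directs the fusion protein to degradation. H3K27ac was measured by ChIP-seq in 2 libraries from cells without dTAG and in 2 libraries each after 30 min, 2 h, 4 h, 8 h and 16 h of dTAG, beside 1 input library without dTAG and 1 after 16 h. The 12 H3K27ac libraries were reduced by the authors to 1 list of site positions. A listed site was found in 1 or more of the samples, treated or untreated, and the list says neither in which nor how strongly. The authors planned a minimum number of raw reads per ChIP sample, but read depth and replicate error behind each listed site were unknown. No test between groups could be made, and changes after dTAG were not analysed here. All counts describe the list. The label of the cells was checked with 10 fibroblast genes such as Col1a2, Vim and Twist1, 8 of which had a promoter site (a site centred within 1 kb of an annotated start), compared with 1 of 6 blood and immune genes, 0 of 3 epithelial genes and 1 of 3 endothelial genes. Among all protein-coding genes 54.7% had one. A CpG island (CGI), which often goes with a promoter site, was within 1 kb of a start at 5, 0, 2 and 1 of the genes of these lists, and its part in the difference was not tested. Col1a1 and Prrx1 were the fibroblast genes without a promoter site. The 5′ end was inside a site at 8 of the 10 fibroblast genes, Col1a1 and Prrx1 included but not Thy1 and Pdgfra, compared with 36.5% of all protein-coding genes. This held for 0 of the blood and immune, epithelial and endothelial genes.

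The DNA just upstream of the genes differed in ways that can be read directly. Below are the 120 bases before the annotated 5′ end of 8 of the genes, from the GRCm38 reference on the transcribed strand and before any transcript of the gene itself. The first set is shown because these 4 ligands of CXCR2, which attract neutrophils, share a stretch of sequence. The bases shown for Cxcl10 and Ccl2 further down lie within other annotated genes, Art3 and Gm17268. Capitals mark matches to the NF-kappaB consensus, to TATAAA, or to the AP-1 motif TGANTCA, on either strand.
Cxcl5: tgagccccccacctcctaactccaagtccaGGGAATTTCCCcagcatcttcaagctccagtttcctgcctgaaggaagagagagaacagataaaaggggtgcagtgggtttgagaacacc
Cxcl3: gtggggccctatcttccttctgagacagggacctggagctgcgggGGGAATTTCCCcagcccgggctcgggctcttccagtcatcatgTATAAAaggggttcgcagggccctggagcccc
Cxcl1: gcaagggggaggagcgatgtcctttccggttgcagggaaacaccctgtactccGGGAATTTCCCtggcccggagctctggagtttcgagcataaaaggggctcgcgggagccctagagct
Cxcl2: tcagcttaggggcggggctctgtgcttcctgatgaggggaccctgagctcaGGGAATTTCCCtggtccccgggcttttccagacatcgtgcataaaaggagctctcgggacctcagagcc

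These sequences lie at chr5:90759240-90759359, chr5:90785983-90786102, chr5:90891121-90891240 and chr5:90903751-90903870, all on the plus strand. The longest run common to the 250 bases upstream of all 4 genes was GGGAATTTCCC, 11 bases long, which began at position -90 in Cxcl5, -75 in Cxcl3, -67 in Cxcl1 and -69 in Cxcl2, counted back from -1 at the base before the 5′ end. Of 21748 protein-coding genes searched over the same 250 bases on both strands, 7 held this run (0.0322%), 4 of which were these genes. Ppbp, Pf4 and Cxcl15, which lie between these genes on chromosome 5, did not hold it. The run was picked from the 4 sequences shown, so its presence in them is no independent observation. It contains overlapping matches to the NF-kappaB consensus in both orientations. The motif counts below are numbers of genes with at least 1 match.

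The second set is shown because the genes bind other receptors and differ in their motifs. Cxcl10 is an interferon-induced ligand of CXCR3, Ccl5 an attractant of T cells and monocytes, Ccl2 the main monocyte attractant acting through CCR2, and Cxcl12 the ligand of CXCR4 that retains haematopoietic cells in the marrow. For Cxcl10 the last 250 bases are given and capitals also mark the interferon response motif, GAAA followed by any 2 bases and GAAA.
Cxcl10: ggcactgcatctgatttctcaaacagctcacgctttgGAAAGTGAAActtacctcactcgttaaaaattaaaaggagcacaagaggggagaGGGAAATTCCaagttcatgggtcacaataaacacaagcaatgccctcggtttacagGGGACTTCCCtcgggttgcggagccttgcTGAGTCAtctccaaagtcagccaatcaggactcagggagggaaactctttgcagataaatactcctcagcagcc
Ccl5: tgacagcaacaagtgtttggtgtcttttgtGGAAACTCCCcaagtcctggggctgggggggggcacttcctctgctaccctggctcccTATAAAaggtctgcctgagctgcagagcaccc
Ccl2: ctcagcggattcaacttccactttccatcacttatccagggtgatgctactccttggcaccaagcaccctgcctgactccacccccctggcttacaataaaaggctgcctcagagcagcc
Cxcl12: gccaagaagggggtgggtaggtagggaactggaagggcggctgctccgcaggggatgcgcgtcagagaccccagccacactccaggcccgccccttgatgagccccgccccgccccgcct

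Cxcl10 is at chr5:92348890-92349139 (minus strand), Ccl5 at chr11:83530519-83530638 (minus strand), Ccl2 at chr11:82035451-82035570 (plus strand) and Cxcl12 at chr6:117168415-117168534 (plus strand). In the 300 bases from 250 before to 50 after the 5′ end, the NF-kappaB consensus was matched in 6 of the 10 genes (Cxcl5, Cxcl3, Cxcl1, Cxcl2, Cxcl10 and Ccl5), against 4.92% of all 21748 protein-coding genes. TATAAA was present in 3 of the 10 (Cxcl3, Ccl5 and Ccl7), against 12.7% of all, and TGANTCA in 2 (Cxcl10 and Ccl7), against 6.88%. The interferon response motif was present in Cxcl10 only, against 3.57% of all. Both clusters and Cxcl12 together hold 22 genes, these 10 included. Of the 22, the NF-kappaB consensus was matched in 7, TATAAA in 10, TGANTCA in 5 and the interferon response motif in 1. No match says only that these letters were not in this window. The GC content of the 300 bases ranged from 42.7% in Ccl7 to 64.7% in Cxcl12, with a median of 55.0% over all protein-coding genes. Cxcl12 was the 1 gene of the 10 with a CGI within 1 kb of a start.

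At least 1 site lay in the window of 9 of the 10 genes, where 70.2% of 21755 protein-coding genes had one. The exception was Cxcl10, with 0 sites. The number per gene ran from 18 at Cxcl5, 17 at Cxcl3 and 14 at Pf4 through 11 at Ccl7, 10 at Ccl2, 7 at Cxcl2, 6 at Cxcl1 and 4 at Cxcl12 to 2 at Ccl5. The median over the 10 genes was 8.5 sites, and the median protein-coding gene had 2. The 10 genes were short, with a median length of 2160 bp compared with 17414 bp for all protein-coding genes, so the share of the window covered by sites was also computed. This share still depends on length, since the window of a short gene is mostly the 10 kb on either side. A background of genes of similar length was not computed.

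The covered share was 56.7% at Cxcl5, 52.1% at Ccl2, 37.8% at Pf4, 34.6% at Ccl7 and 31.1% at Cxcl3. It was lower at Cxcl1 (17.2%), Cxcl2 (14.4%), Cxcl12 (7.61%) and Ccl5 (5.65%). The median protein-coding gene had 3.12% of its window covered, and 9 of the 10 chemokine genes were above the median. Only 0.368% of protein-coding genes were covered as much as Cxcl5 and 0.561% as much as Ccl2, whereas 35.6% were covered as much as Ccl5. Neighbours that share sites are not independent in this order.

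**Figure D1:**
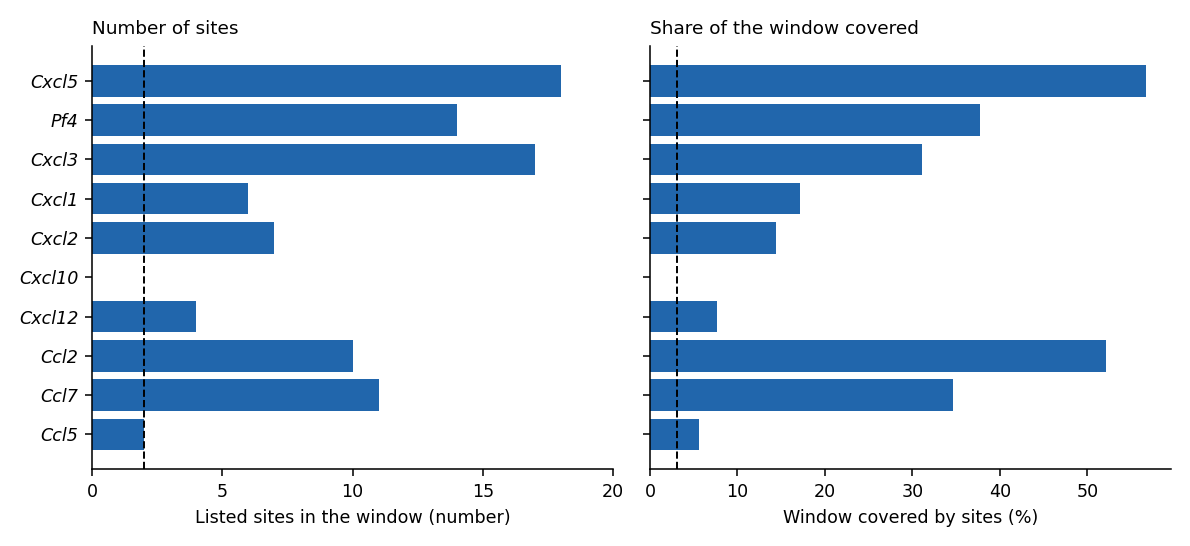
Number of listed H3K27ac sites (left, number) and share of the window covered by them (right, %) for the 10 chemokine genes, in chromosomal order. Dashed lines mark the median of all protein-coding genes (2 sites and 3.12%). Cxcl5 and Ccl2 had the highest covered shares and Cxcl10 had no site.

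A promoter site, that is a site whose middle was within 1 kb of any annotated start of the gene, was found at 6 of the 10 genes: Cxcl5, Pf4, Cxcl3, Cxcl12, Ccl2 and Ccl7. Among all protein-coding genes 54.7% had one, and among the 8830 without a CGI within 1 kb, the class of 9 of the 10 genes, 17.6% did. The outermost annotated 5′ end lay inside a site at 4 of the 10 (Cxcl5, Cxcl12, Ccl2 and Ccl7), compared with 36.5% of all protein-coding genes and 10.2% of those without a CGI. Both counts include Cxcl12, which has a CGI and is therefore outside the class without one. At Cxcl1, Cxcl2, Cxcl10 and Ccl5 no site was centred within 1 kb of a start, and all 4 carry the NF-kappaB consensus shown above, as do Cxcl5 and Cxcl3, which had promoter sites. RefSeq starts were at hand for 6 of the 10 genes, lay at most 28 bases from the GENCODE start used here, and gave the same answer for each.

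**Figure D2:**
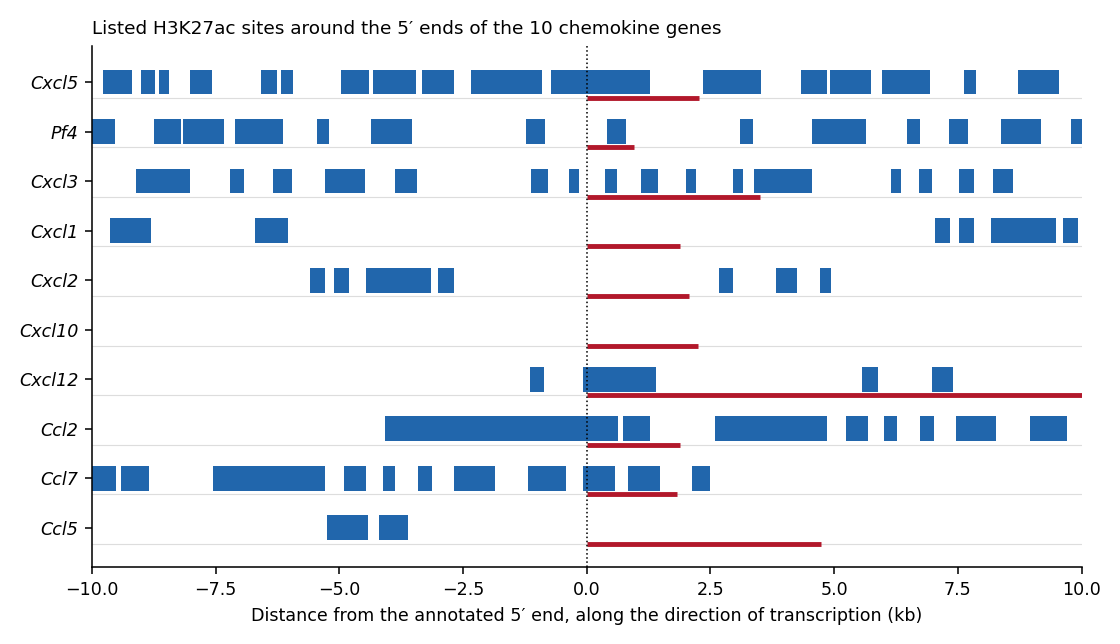
Listed H3K27ac sites (blue blocks) from 10 kb before to 10 kb after the annotated 5′ end (dotted line) of each of the 10 chemokine genes, drawn along the direction of transcription in kb; red lines show the gene bodies. Sites cross the 5′ ends of Cxcl5, Cxcl12, Ccl2 and Ccl7, whereas the bodies of Cxcl1, Cxcl2, Cxcl10 and Ccl5 hold none.

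The larger group of the chromosome 5 cluster runs from Cxcl5 to Cxcl2 over 146579 bp and held 70 sites that covered 24.0% of it. Cxcl5 (chr5:90759360-90761624, plus strand) codes for a ligand of CXCR2. A site of 2009 bp (chr5:90758639-90760647) reached from position -721 to 1287 of the gene. It thereby covered the 5′ end and overlapped coding sequence, intron and both UTRs. Only 3 of the 63 sites were wider than 2000 bp. A further 10 sites lay upstream in the window and 7 downstream, with widths from 207 to 1444 bp among them, the nearest upstream being the 1444 bp site at chr5:90757013-90758456. When sites less than 1 kb apart were joined, the 5′ end of Cxcl5 fell into a region of 11 sites and 11073 bp (chr5:90749575-90760647), most of it upstream. Of 61769 such joined regions on these chromosomes, few (1.08%) were at least as long. The region of Cxcl5 also held the 5′ end of a processed pseudogene, Gm43090 (chr5:90750525-90750838, plus strand), inside a site.

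Pf4 (platelet factor 4, chr5:90772435-90773383, plus strand) codes for a chemokine stored in platelet granules. Its 14 sites comprised 7 upstream, 6 downstream and 1 inside the gene. The site inside (chr5:90772847-90773225, 379 bp) began at position 412 and overlapped coding sequence, intron and 3′ UTR. It was centred 523 bases from the nearest start of a protein-coding transcript. The 5′ end itself lay in a stretch of 1262 bp without a site.

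Cxcl3 (chr5:90786103-90789600, plus strand), another ligand of CXCR2, had 17 sites, but they were narrow, with a median of 341 bp against 580 bp at Cxcl5. The 5′ end fell into a gap of 526 bp between a site of 200 bp, the narrowest width in the list (chr5:90785741-90785940, positions -362 to -163), and one of 257 bp over coding sequence and intron (chr5:90786467-90786723). The shared NF-kappaB match at -75 was in this gap, whereas that of Cxcl5 at -90 was inside the 2009 bp site. Downstream of the 257 bp site, one of 341 bp (chr5:90787196-90787536) overlapped coding sequence, intron and 3′ UTR. Another 2 narrow sites overlapped the gene further downstream only in its non-coding retained-intron transcript. The widest site (chr5:90789476-90790653, 1178 bp) also overlapped the gene only in that transcript and crossed the annotated 3′ end. Some sequence of this group is repetitive, and 27.4% of the 75-base windows of a 209 bp site downstream of Cxcl3 (chr5:90792244-90792452) recurred elsewhere on the chromosomes, compared with 2.42% of the windows of the Cxcl3 body. How the authors handled reads with several positions was not tested for these sites.

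Cxcl1 (chr5:90891241-90893115, plus strand) and Cxcl2 (chr5:90903871-90905938, plus strand) code for the best studied neutrophil attractants of the mouse, and no site touched either gene. For Cxcl1 the nearest sites to the 5′ end lay 6037 bases upstream (chr5:90884540-90885204, 665 bp) and 7033 bases downstream, so that the 5′ end stood in a stretch of 13069 bp without a site. For Cxcl2 the distances were 2692 and 2665 bases and the stretch 5356 bp. The interval of 10755 bp between the genes held 4 sites, shared by both windows, of which the widest was 1325 bp (chr5:90899404-90900728). Joined, these 4 formed a region of 2906 bp, as did 3 sites downstream of Cxcl2 with 2277 bp.

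The genes in between were marked unevenly. Ppbp, the pro-platelet basic protein gene, and Cxcl15, a lung chemokine gene, had their 5′ ends inside sites of 825 and 404 bp, so that 5 of the 7 genes of the group had a promoter site. Between Cxcl15 and Cxcl1, an interval of 88173 bp held 38 sites, 3 of them near Cxcl15 and, after 23989 bp without a site, 35 more from chr5:90830240 to chr5:90885204. The median width of the 35 was 386 bp and 5 were wider than 1 kb, the widest having 1238 bp. They began 61001 bp before the 5′ end of Cxcl1 and only the last 2 were in its window. The 5′ end of a lincRNA gene, Gm43086 (chr5:90832328-90835951), was inside a site. The protein-coding genes flanking the group, Rassf6 (118702 bp away) and Mthfd2l (25178 bp away), both had a promoter site.

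**Figure D3:**
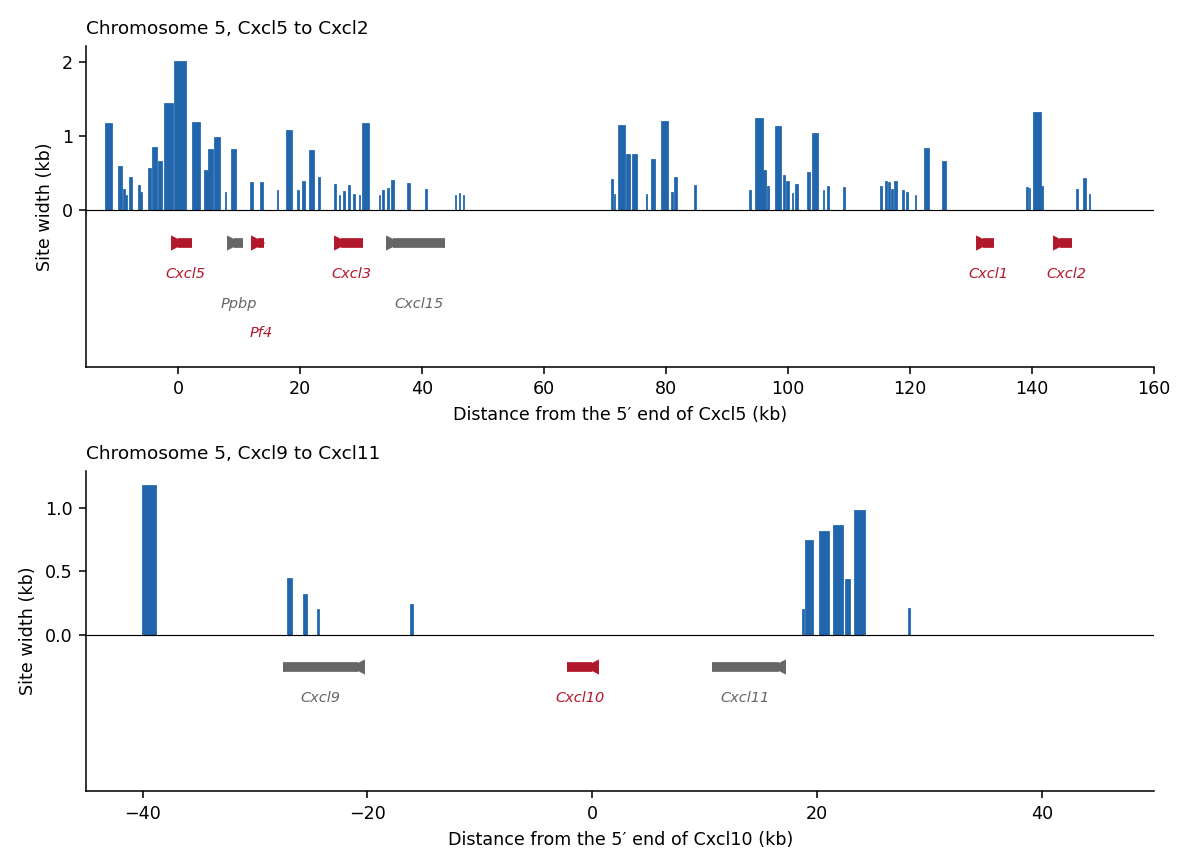
Listed H3K27ac sites (blue bars, height and drawn width both equal to the width of the site in kb) along the 2 gene groups of the chromosome 5 cluster, against the distance in kb from the 5′ end of Cxcl5 (top) or Cxcl10 (bottom). Gene bodies are drawn below with an arrowhead at the 5′ end, the 10 chemokine genes of the rule in red and other cluster genes in grey; sites were dense from Cxcl5 to Cxcl15, missing over Cxcl1 and Cxcl2, and missing around Cxcl10.

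The smaller chromosome 5 group holds Cxcl9, Cxcl10 and Cxcl11, the interferon-induced ligands of CXCR3. Cxcl10 (chr5:92346638-92348889, minus strand) had no site in its window, and its 5′ end stood in a stretch of 34563 bp without any. The nearest sites lay 18626 bases upstream (chr5:92367515-92367714, 200 bp) and 15938 bases downstream (chr5:92332706-92332951, 246 bp). With a window of 20 kb, 3 sites were counted. None of the 3 genes had a promoter site. Cxcl9 had 3 narrow sites in its body, of 200 to 450 bp, which overlapped its 3′ UTR and an intron but not its start. Upstream of Cxcl11, 6 sites joined to a region of 5625 bp (chr5:92367515-92373139), beginning 2030 bases before its 5′ end. Cxcl10 and Cxcl11 lie inside Art3 (chr5:92331827-92414628, plus strand), so that the positions of sites do not tell to which gene they belong. GENCODE classes Cxcl11 as a polymorphic pseudogene. The covered share of the group was 2.76%, compared with 24.0% for the Cxcl5 to Cxcl2 group, and the flanking genes Sdad1 and Nup54 both had a promoter site.

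Cxcl12 (chr6:117168535-117181367, plus strand) stands alone on chromosome 6 and is expressed by stromal cells without inflammatory signals. Of its 4 sites, one of 1466 bp lay over the 5′ end (chr6:117168468-117169933). This site ran from position -67 to 1398 and overlapped 5′ UTR, coding sequence and intron. A site of 288 bp upstream was centred 1010 bases from the nearest start, and 2 of 324 and 420 bp were within the gene. The site of 420 bp was in an intron, and that of 324 bp lay in the 3′ UTR of a short isoform. The covered share of 7.61% was reached or passed by 28.1% of protein-coding genes. Among the 4 genes whose 5′ end was inside a site, Cxcl12 had the fewest sites and was the one with a CGI.

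On chromosome 11, the Ccl2 to Ccl1 group spans 270120 bp with 30 sites, which covered 5.70% of it and were concentrated at Ccl2 and Ccl7. Ccl2 (chr11:82035571-82037453, plus strand) had the widest site of the 63, one of 4711 bp (chr11:82031487-82036197) from position -4084 to 626. It covered the 5′ end, overlapped 5′ UTR, coding sequence and intron, and extended mostly upstream. Only 0.458% of all sites in the list were as wide. A second site of 559 bp (chr11:82036299-82036857) lay over coding sequence and intron, and 8 more, among them one of 2271 bp (chr11:82038157-82040427), lay downstream towards and over Ccl7.

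The middle of the 4711 bp site was 1729 bases from the start of Ccl2, so this site did not meet the definition of a promoter site in spite of covering the start. The promoter site of Ccl2 was the 559 bp site, centred 968 bases from the start of a retained-intron transcript and 1007 bases from that of the coding transcript. Gm17268 (chr11:82028224-82038562), annotated as protein-coding on the minus strand, overlaps Ccl2, and its own 5′ end was inside the 2271 bp site. To which of these genes the sites belong cannot be told apart by position.

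Ccl7 (chr11:82045712-82047525, plus strand) also codes for a monocyte attractant and had 11 sites, 10 of them shared with Ccl2. A site of 636 bp (chr11:82045640-82046275) lay over the 5′ end, 5′ UTR, coding sequence and intron from position -72 to 563. A further site of 644 bp (chr11:82046542-82047185), from position 830 to 1473, overlapped coding sequence, intron and 3′ UTR. The interval of 8258 bp between Ccl2 and Ccl7 was covered to 59.6% by 7 sites, with no stretch above 703 bp free of a site. Joined, 9 sites formed a region of 10051 bp (chr11:82038157-82048207) around Ccl7, and 1.34% of joined regions were at least as long. The interval of 10297 bp to Ccl11, the eotaxin gene, held 1 site of 378 bp, next to Ccl7, followed by 9615 bp without a site.

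None of the other 4 genes of the group, Ccl11, Ccl12, Ccl8 and Ccl1, had a promoter site. Ccl12, also a CCR2 ligand in the mouse, had 0 sites in its window. Ccl8 had a single site of 379 bp over its coding sequence, intron and 3′ UTR. The annotated body of Ccl1 spans 129034 bp because of a non-coding transcript, and its RefSeq start lies 125878 bases from the outermost start, also without a promoter site. Neither flanking protein-coding gene, Asic2 at 67113 bp and Tmem132e at 83209 bp, had a promoter site.

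Ccl5 (chr11:83525778-83530518, minus strand) lies further along the chromosome in a second group, with Ccl9, Ccl6, Ccl3 and Ccl4. Its 2 sites, of 582 bp (chr11:83534134-83534715) and 816 bp (chr11:83534944-83535759), were both upstream, the nearer one 3616 bases from the 5′ end. No site touched the gene, and in the downstream direction the next one was 37582 bases from the 5′ end, the longest such distance among the 10 genes. The 2 sites remained the only ones with windows of 5 and of 20 kb.

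Ccl9 was the 1 gene of this group with a promoter site. Its 5′ end was inside a site of 1510 bp (chr11:83578147-83579656), and 6 sites joined to a region of 6471 bp from there towards Ccl6. E230016K23Rik (chr11:83582056-83623693, plus strand), annotated as a processed transcript, had its 5′ end inside a site of the same region. To which of these genes the sites belong cannot be told apart by position. Ccl6 itself had no promoter site, and Ccl3 and Ccl4 had 0 sites in their windows, with 58580 bp free of sites around their 5′ ends. In all, 5 of the 10 cluster genes of chromosome 5 and 3 of the 11 of chromosome 11 (Ccl2, Ccl7 and Ccl9) had a promoter site, compared with 17.6% of protein-coding genes without a CGI. None of these 21 genes had a CGI within 1 kb.

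**Figure D4:**
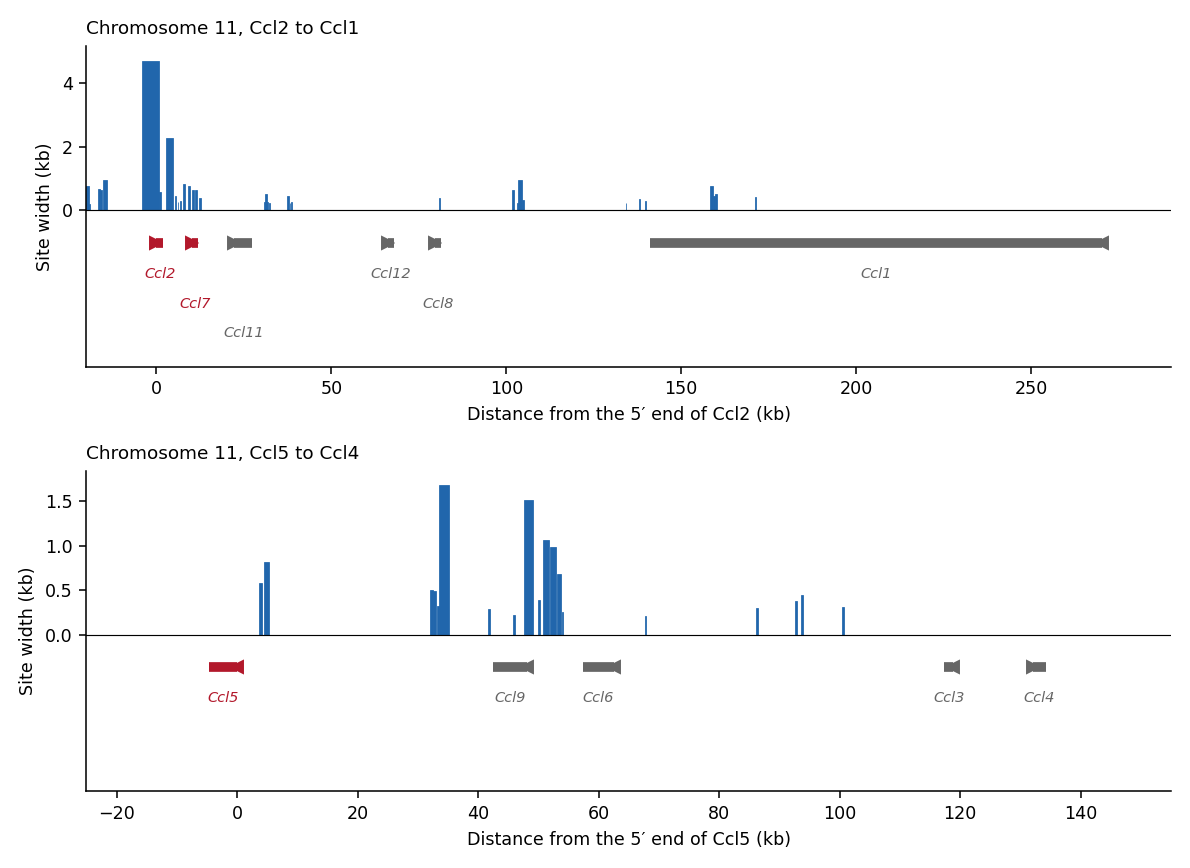
Listed H3K27ac sites (blue bars, height and drawn width both equal to the width of the site in kb) along the 2 gene groups of the chromosome 11 cluster, against the distance in kb from the 5′ end of Ccl2 (top) or Ccl5 (bottom). Gene bodies are drawn below with an arrowhead at the 5′ end, the 10 chemokine genes of the rule in red and other cluster genes in grey; the 4711 bp site covers the start of Ccl2, and no site touches Ccl5, Ccl3 or Ccl4.

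The 63 sites resembled the list as a whole in width, with a median of 420 bp compared with 401 bp, and in base composition, with a median GC content of 47.2% compared with 48.8%. Of these, 10 or 15.9% belonged to the narrowest 25% of the list (under 265 bp). In the central 300 bases of the sites, TGANTCA was present in 14.3% of the 63 against 12.4% of all sites, and the NF-kappaB consensus in 3.17% against 3.97%. TATAAA was present in 9.52% against 11.7%, and the interferon response motif in 4.76% against 3.32%. The NF-kappaB consensus was thus matched in 6 of 10 promoter windows, 4 of them through the shared run GGGAATTTCCC, and in 2 of the 63 site centres. The share of site centres was near that of all sites. Only central bases were searched, so the Cxcl5 match at -90 was not counted although it lay inside the 2009 bp site.

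Among 16 chemokine ligand genes outside these clusters, 5 had a promoter site (Cxcl16, Cxcl17, Cx3cl1, Ccl20 and Ccl25), where 54.7% of all protein-coding genes and 17.6% of those without a CGI had one. A CGI was within 1 kb of a start at 5 of the 16, among them Cxcl16, Cx3cl1 and Ccl25. The class without a CGI thus holds all but 5 of the 16, and of these Cxcl17 and Ccl20 had a promoter site. This share was near the 17.6% of all protein-coding genes without a CGI. The widest promoter site among the 5 ligand genes with one was 1279 bp at Ccl25, and that of Cxcl16, a transmembrane chemokine, had 268 bp. Of 23 chemokine receptor genes, 2 of which had a CGI, 2 had a promoter site, namely Cxcr6 and the scavenging receptor gene Ackr3, beside the same 54.7% and 17.6%. At least 1 site lay in the window of 11 of the 23, compared with 70.2% of protein-coding genes. Cxcr2, the receptor of the Cxcl5, Cxcl3, Cxcl1 and Cxcl2 products, Ccr2, that of Ccl2, and Cxcr4, that of Cxcl12, all had 0 sites in their windows, whereas Ackr3, whose product also binds that of Cxcl12, had 3.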

How the data were processed

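H3K27ac ChIP-seq was performed by the authors on 12 libraries, with 2 input libraries, of NG3 iMEF cells. According to their methods, reads were trimmed with Trim Galore, aligned to GRCm38 (mm10) with BWA and filtered with SAMtools, and narrow peaks were called with MACS2. Replicates were merged with Picard, but whether the listed peaks were called on merged replicates is not given in the sources used here. The deposited file holds the chromosome, start and end of each of 122228 sites found in any sample, with no count, score or sample label. How the peaks of the samples were joined, and at which threshold, is not given in the sources used here. The time points of dTAG treatment were not compared.

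Starts were read as counted from 0 and are given here counted from 1. Genes and transcripts were taken from GENCODE M21 (GRCm38), the same build. Sites were assigned to windows of 10 kb around gene bodies and to promoters (site middle within 1 kb of any annotated start). CGIs were called on the repeat-masked genome with a running score of 17 for CpG and -1 for other bases, a GC content over 50%, an observed to expected ratio over 0.6 and a length over 200 bp. Motifs were counted on both strands. The share of 75-base windows found more than once on the chromosomes was computed without the alternate loci of other mouse strains. RefSeq starts (GRCm38.p6) were matched for 15 of the 22 genes. Promoter counts were set beside all protein-coding genes on chromosomes 1 to 19 and X. No test was run, because the list has no replicates. Alternatives were other windows, other promoter definitions, a list without narrow sites, joined sites, and the RefSeq start of Ccl1, which was added after the data were seen. Named genes were the 10 genes, the other genes of both clusters, other ligands and receptors with a promoter site, and the flanking protein-coding genes. The genes and lists were chosen with earlier results of these data known. Other genes named (Art3, Gm17268, Gm43086, Gm43090, E230016K23Rik, Cxcr2, Ccr2, Cxcr4 and the markers named) were chosen after their values were seen. The counting was tested on simulated data. Python 3.11 was used with numpy, pandas and matplotlib.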

Additional observations from a re-analysis of the deposited data

How the results depend on the processing

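No paired analysis was possible because no result came from a test and all libraries were pooled. Depth behind a site was unknown, so a gene without a site may have had H3K27ac below the threshold of the peak caller. Of 34 recomputed counts over the gene groups, 29 stayed within 1.5 times the reported count and 5 did not. The number of distinct sites in the windows fell from 63 to 14 with the gene bodies alone and to 19 when sites less than 1 kb apart were joined. Joining also moved the middles of wide regions away from the starts, so that promoter sites were counted at 2 of the 10 genes in place of 6, at 1 chromosome 5 cluster gene in place of 5 and at 1 chromosome 11 cluster gene in place of 3, although the 5′ ends of 5 genes were then inside a region in place of 4. With protein-coding transcripts alone, Ccl2 lost its promoter site and 5 genes remained. Windows of 5 kb left 8 genes with a site, since Cxcl1 then had 0, and windows of 20 kb gave all 10 genes at least 1. Of 40 recomputed numbers of sites for single genes, 18 moved by more than 1.5 times, 8 of them on joining; 0 did so when the narrowest 25% of sites were left out.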
